A study of Homo sapiens with 4 samples.

Results

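NEAT1 and MALAT1 are neighbouring long noncoding RNAs on the plus strand of chromosome 11, and this account covers their poly(A) regions in DICER(ex5) cells. DICER(ex5) is a line with reduced DICER function (a hypomorph), made in HCT116 human colon cancer cells. Dicer processes microRNA precursors to mature microRNAs. The series holds 4 libraries of this line, described as biological replicates, and no parental line or other control, so each value describes the DICER(ex5) state and none measures an effect of it. A region was taken as a member when it lay on the plus strand inside a window of 24 kb around NEAT1 or of 11 kb around MALAT1 on hg19. Of 31081 poly(A) regions in the table, 24 were members: 3 in the NEAT1 window and 21 in the MALAT1 window. They held 1163 and 8325 reads, which were 0.00681% and 0.0488% of all reads.

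Both RNAs stay in the nucleus and are known for unusual 3' ends. NEAT1 is made in a short form that ends at a conventional poly(A) site and in a long form that runs through that site; the long form is the scaffold of paraspeckles, nuclear bodies that hold RNA-binding proteins. MALAT1 gathers at nuclear speckles, which store splicing factors. The mature 3' ends of MALAT1 and of long NEAT1 are cut by RNase P, carry no added poly(A) tail, and are closed by a triple helix built on an A-rich tract encoded in the genome.

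The assay reads the junction between an RNA and its poly(A) tail. Poly(A)+ RNA was selected with oligo(dT), broken with alkali and size-selected at 50 to 100 nt, and reverse transcription started from an anchored oligo(dT) primer. The 3' part of that primer is shown because it decides which RNA ends can be read, printed without the anchor bases V (any base but A) and N (any base) that follow it.

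primer 3' part: tttttttttttttttttttt

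The run of 20 T bases pairs with a poly(A) tail and can also pair with an A-rich stretch inside a transcript. No hg19 sequence was used here, so the flanks of the member regions were not read, and whether a region ends at a tail or at an internal A-rich stretch was not tested. Regions are numbered from 5' to 3' within each gene and positions are printed as deposited.

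Totals were 5211279, 2163977, 5713530 and 3984278 reads in libraries 1 to 4. A level is given in CPM, the reads of a region scaled to the total of its library. No label says which cultures were handled together, and the SD over 4 libraries includes any technical spread. Intervals are exact 95% intervals. They hold counting error alone and treat each read as independent. PCR copies of a molecule may have been counted more than once. The intervals, and the exact tests on the same reads given below, may therefore understate even the counting error.

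NEAT1 reads were concentrated at a single end. NEAT1 region 3, the most 3' region, lay at chr11:65193956-65194015 and was 60 bases wide. It had 354, 151, 356 and 217 reads in libraries 1 to 4, which were 67.9, 69.8, 62.3 and 54.5 CPM. The level was 63.6 ± 6.88 CPM (SD, n = 4), with library 4 lowest and library 2 highest.

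NEAT1 region 3 held nearly all reads of the gene in every library. Its share was 92.7% (interval 89.6% to 95.1%) in library 1, and 92.1%, 93.0% and 92.7% in libraries 2, 3 and 4. The share averaged 92.6% ± 0.376 (SD, n = 4), so the spread between libraries was smaller than the counting interval of a single library.

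Upstream of it lay a pair of weak, wide regions. NEAT1 region 1, at chr11:65193399-65193541, was 143 bases wide and had 12, 3, 12 and 11 reads in libraries 1 to 4. NEAT1 region 2, at chr11:65193849-65193934, was 86 bases wide and had 16, 10, 15 and 6 reads. A gap of 21 bases separated region 2 from region 3, and region 1 ended 474 bases before the end of region 3. Region 2 averaged 2.96 ± 1.29 CPM and region 1 averaged 2.14 ± 0.572 CPM (SD, n = 4). Region 2 was above region 1 in 3 of 4 libraries, so these neighbours in the order of levels did not differ beyond their spread, while region 3 was above both in all 4.

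Downstream of NEAT1 region 3 the table listed nothing for the remaining 19985 bases of the window, the direction in which the long form continues. No region of the table had fewer than 11 reads in the library where it was highest. A region below that limit would not be listed, so absence of reads was not measured. The next plus-strand regions began 30026 and 30315 bases after the last NEAT1 end, outside both windows. They were at chr11:65224041-65224094 and chr11:65224330-65224350 and averaged 14.1 ± 3.56 and 7.15 ± 1.59 CPM (SD, n = 4). No minus-strand region was listed in either window.

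MALAT1 had a different layout, with 21 regions strung along 7252 bases from 65266693 to 65273944. The regions covered 1221 bases, 16.8% of that span, and were 9 to 252 bases wide with a median of 30 bases. Most reads lay in the first 4 regions. Within the first 1000 bases these 4 held 77.0%, 79.3%, 78.9% and 78.7% of the MALAT1 reads in libraries 1 to 4, a mean of 78.5% ± 0.990 (SD, n = 4). Within the first 1500 bases 9 regions held 89.6% ± 1.96 (SD, n = 4).

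MALAT1 region 3 was the strongest. It lay at chr11:65267048-65267210, was 163 bases wide and had 1134, 628, 552 and 348 reads in libraries 1 to 4, or 218, 290, 96.6 and 87.3 CPM. Libraries 1 and 2 were both above libraries 3 and 4. Its share of MALAT1 reads was steadier than its level, at 32.3%, 30.8%, 32.0% and 33.0%, with a mean of 32.0% ± 0.914 (SD, n = 4).

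MALAT1 region 4 followed region 3 after a gap of 10 bases, at chr11:65267221-65267472. At 252 bases it was the widest region of the whole table, where the median width was 27 bases. It had 865, 520, 496 and 314 reads in libraries 1 to 4, or 166, 240, 86.8 and 78.8 CPM, with libraries 1 and 2 again above libraries 3 and 4. Its share of MALAT1 reads was 24.7%, 25.5%, 28.8% and 29.7% in libraries 1 to 4, lower in the first pair.

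MALAT1 region 1, the most 5' one, lay at chr11:65266693-65266762 and was 70 bases wide. It had 592, 373, 274 and 139 reads, or 114, 172, 48.0 and 34.9 CPM. Its share was 16.9%, 18.3%, 15.9% and 13.2% in libraries 1 to 4. The order region 3, region 4, region 1 and then any other region held in all 4 libraries. Of the 20 pairs of neighbours in the order of mean levels these were the 3 pairs ordered alike in every library. In the other 17 pairs the order was reversed or tied in at least 1 library.

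**Figure D1:**
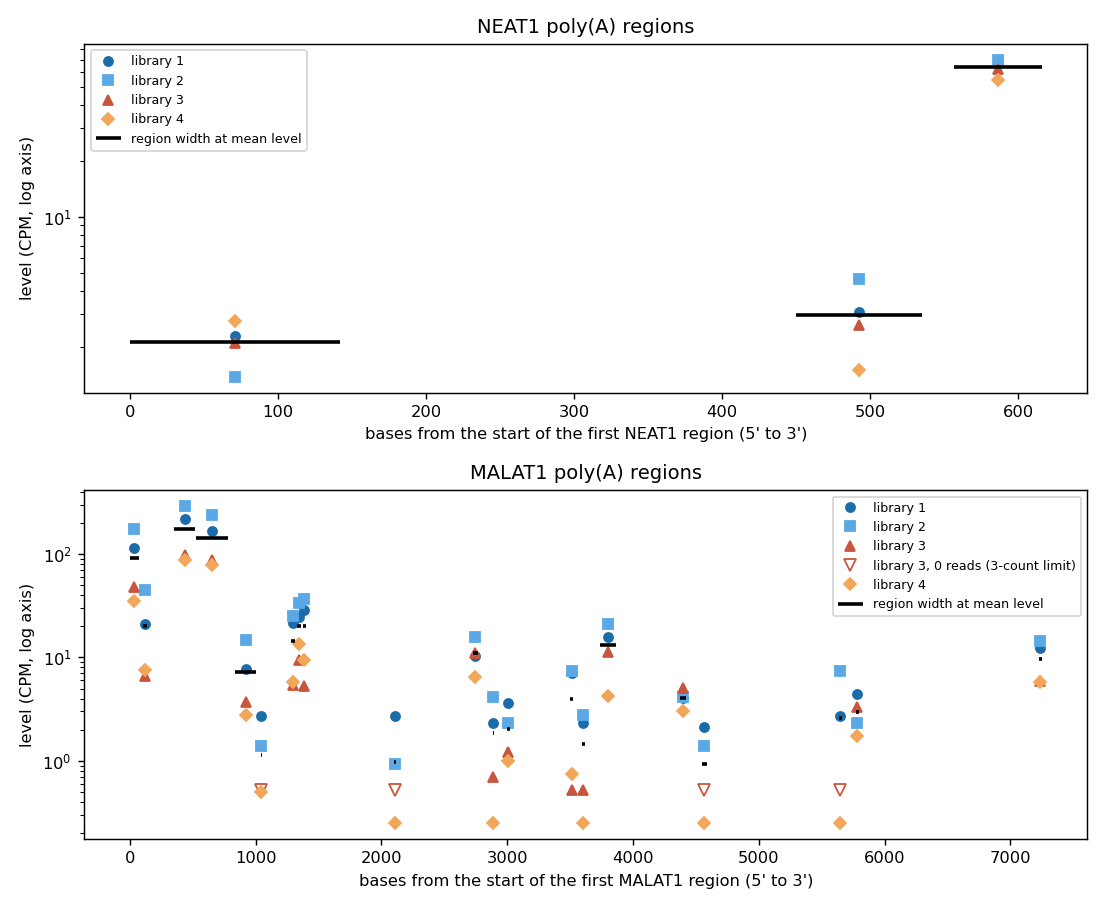
Level of each poly(A) region of NEAT1 (top) and MALAT1 (bottom) against its distance from the start of the gene's first region, 5' to 3', on a log axis in CPM. Symbols are libraries, black bars mark the width of a region at its mean level, and open triangles mark the 3-count limit where library 3 had 0 reads. NEAT1 has its high level at the most 3' region (63.6 CPM), and MALAT1 near its 5' side (173 CPM at region 3).

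Next to the strong regions lay weaker ones. MALAT1 region 2, at chr11:65266795-65266831, had 110, 96, 38 and 30 reads in libraries 1 to 4. Region 5, at chr11:65267529-65267698, was 170 bases wide but had 40, 32, 21 and 11 reads. Regions 3, 4 and 5 were among the 28 regions of the table that were 150 bases or wider, which were 0.0901% of all regions.

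A trio of narrow regions, 7, 8 and 9, lay within 115 bases. Region 7 (chr11:65267976-65268005) had 112, 54, 31 and 23 reads, region 8 (chr11:65268023-65268055) had 128, 73, 54 and 54, and region 9 (chr11:65268066-65268090) had 148, 80, 30 and 38. Together they held 11.1%, 10.1%, 6.67% and 10.9% of the MALAT1 reads in libraries 1 to 4, with library 3 lowest.

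After a gap of 704 bases, regions 10 to 20 spanned 3695 bases and together held 8.53%, 7.35%, 11.2% and 7.01% of the MALAT1 reads. The best read of these was region 16, at chr11:65270428-65270555 and 128 bases wide, with 82, 45, 65 and 17 reads. Region 11, at chr11:65269418-65269460, had 54, 34, 63 and 26 reads. Region 17, at chr11:65271067-65271111, had 21, 9, 29 and 12. Unlike the strong regions, regions 11 and 17 had more reads in library 3 than in library 1.

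The other regions of this stretch with reads in every library had at most 37 reads in any library. Region 14 (chr11:65270194-65270215) had 37, 16, 3 and 3 reads in libraries 1 to 4, and region 20 (chr11:65272467-65272489) had 23, 5, 19 and 7. Region 13 (chr11:65269691-65269715) had 19, 5, 7 and 4 reads, region 12 (chr11:65269577-65269585) had 12, 9, 4 and 1, and region 15 (chr11:65270286-65270311) had 12, 6, 3 and 1. None of these 5 reached 10 CPM in any library.

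Regions 6, 10, 18 and 19 had 0 reads in library 3, which allows up to 0.525 CPM or 0.174% of its MALAT1 reads. Region 6 (chr11:65267732-65267743) had 14, 3, 0 and 2 reads in libraries 1 to 4, and region 10 (chr11:65268795-65268808) had 14, 2, 0 and 1. Region 18 (chr11:65271239-65271284) had 11, 3, 0 and 1 reads, and region 19 (chr11:65272332-65272354) had 14, 16, 0 and 1. Set against the limit of 3 reads, region 19 was 14.1-fold higher in library 2 than in library 3. This leaves out the counting error of its 16 reads in library 2, so it is not a strict lower bound. Libraries 1, 2 and 4 had reads at all 21 regions and library 3 at 17. When every library was thinned at random to the 2163977 reads of library 2, reads remained at 21, 21, 17 and 18 MALAT1 regions in libraries 1 to 4. Over all regions of the table the shares with reads were 99.3%, 98.9%, 91.2% and 91.6%, so the whole table also lost regions in libraries 3 and 4. A region enters the table through its highest library, and these 4 regions reached 11 reads in library 1, in library 2 or in both, but not in libraries 3 and 4. The same limit applies to regions 12, 13, 14 and 15, which also stayed below 11 reads in libraries 3 and 4.

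MALAT1 region 21, the most 3' one, stood apart from the rest, after a gap of 1430 bases from region 20. It lay at chr11:65273920-65273944, was 25 bases wide and had 64, 31, 34 and 23 reads in libraries 1 to 4, or 12.3, 14.3, 5.95 and 5.77 CPM. Its share of MALAT1 reads was 1.83%, 1.52%, 1.97% and 2.18%, with a mean of 1.87% ± 0.277 (SD, n = 4). Where this region lies relative to the annotated end of MALAT1 was not examined, since no hg19 annotation was used.

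**Figure D2:**
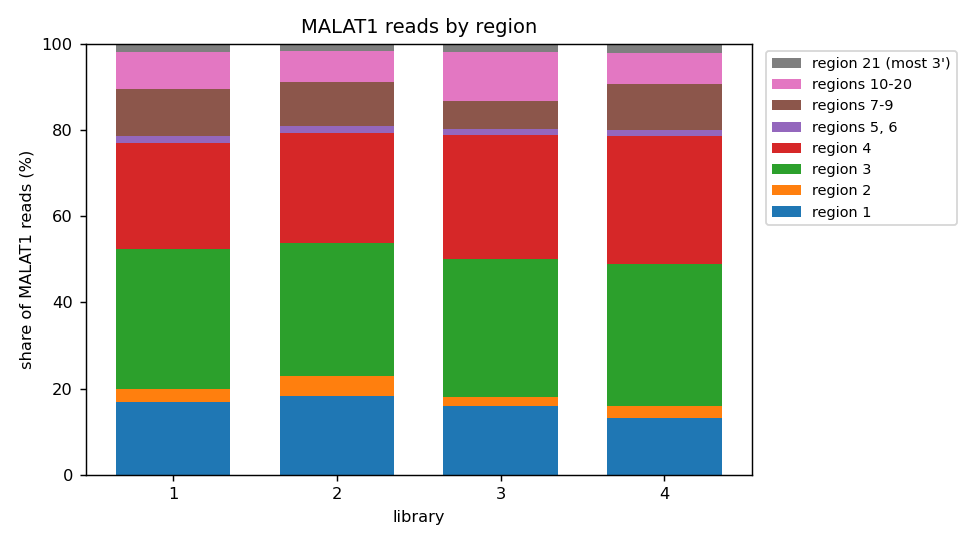
Share of MALAT1 reads in its regions (%, stacked) in each of the 4 libraries. Regions 1, 3 and 4 together make up 73.9% to 76.7% of each bar, and region 21, the most 3', 1.52% to 2.18%.

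The layout of MALAT1 was set beside that of all loci, formed by joining regions of a strand within 5 kb. Both genes came out as single loci equal to their windows' members. Of 17963 loci, not matched for reads, 2 had more regions than MALAT1. Its count of 21 includes regions 6, 10, 12 to 15, 18 and 19. These stayed below 11 reads in libraries 3 and 4, so the rank rests in part on libraries 1 and 2, where MALAT1 was higher. The strongest region held 32.0% of the MALAT1 reads over all libraries, against a median of 83.8% over the 2565 multi-region loci that had 1000 reads or more, and 1.36% of those loci had a lower share. The most 3' region held 1.83% of MALAT1 reads, against a median of 30.8%, and 10.6% of those loci had a lower share.

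NEAT1 lay on the other side of both medians. Its strongest region was also its most 3' one and held 92.7% of its reads over all libraries, and 81.3% of the 2565 loci had a lower share in their most 3' region. These are descriptions of rank among loci, which can join neighbouring genes or split one.

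**Figure D3:**
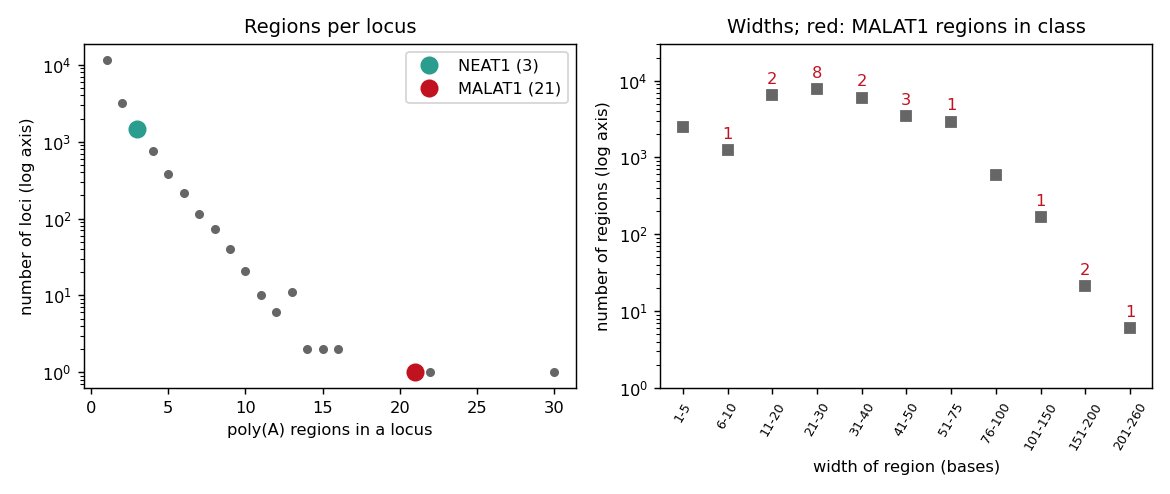
Left, number of loci (log axis) by the number of poly(A) regions in a locus, with NEAT1 (3) and MALAT1 (21) marked. Right, number of regions of the whole table (log axis) in each class of width in bases, with the number of MALAT1 regions in the class in red. Among loci not matched for reads, 2 have more regions than MALAT1, which holds 3 of the 28 regions that are 150 bases or wider.

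Summed over its regions, NEAT1 was close to even across libraries. It had 382, 164, 383 and 234 reads in libraries 1 to 4, or 73.3, 75.8, 67.0 and 58.7 CPM, with a mean of 68.7 ± 7.61 CPM (SD, n = 4). The highest library was 1.29-fold above the lowest.

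MALAT1 varied far more. It had 3506, 2040, 1723 and 1056 reads in libraries 1 to 4, or 673, 943, 302 and 265 CPM, with a mean of 546 ± 323 CPM (SD, n = 4). Libraries 1 and 2 were above libraries 3 and 4 without overlap, and the highest was 3.56-fold above the lowest. In bulk RNA, fewer cells with a transcript and less of it per cell cannot be told apart.

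The ratio of NEAT1 reads to MALAT1 reads does not depend on the depth of a library. It was 0.109 (interval 0.0978 to 0.121) in library 1, 0.0804 (0.0681 to 0.0943) in library 2, 0.222 (0.198 to 0.248) in library 3 and 0.222 (0.192 to 0.256) in library 4. Per covered base of the regions, the ratio of NEAT1 reads to MALAT1 reads was 0.460, 0.340, 0.939 and 0.936. By that measure the density of reads was lower for NEAT1 than for MALAT1 in libraries 1 and 2. The intervals in libraries 3 and 4 (0.839 to 1.05 and 0.809 to 1.08) included equal density. Whether reads scale with the width of a region was not tested, so equal density does not mean equal levels. By reads, NEAT1 was below MALAT1 in all 4 libraries, with a ratio of 0.222 in libraries 3 and 4.

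**Figure D4:**
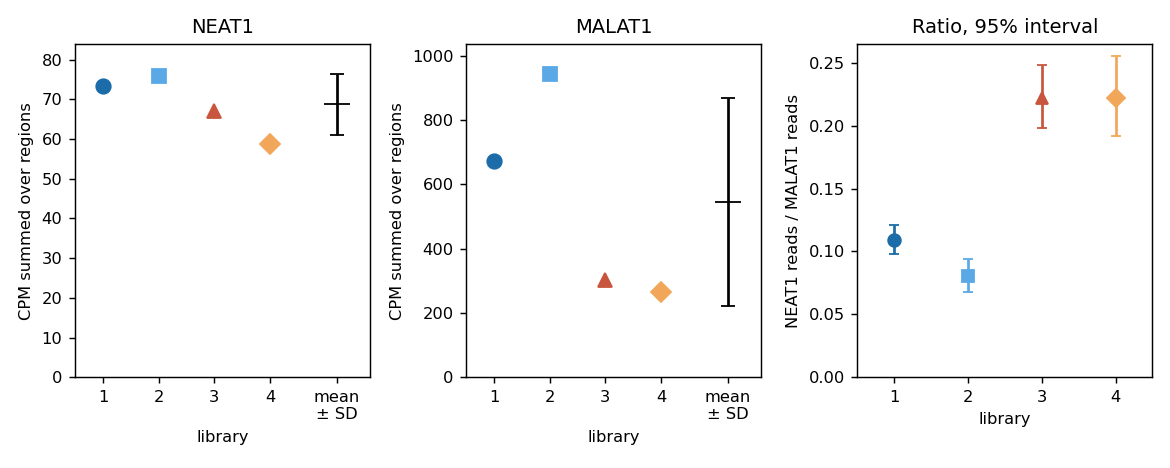
CPM summed over the regions of NEAT1 (left) and MALAT1 (middle) in each library, with mean ± SD over 4 libraries, and the ratio of NEAT1 to MALAT1 reads with its 95% counting interval (right). NEAT1 stays between 58.7 and 75.8 CPM, while MALAT1 lies at 673, 943, 302 and 265 CPM in libraries 1 to 4.

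Each pair of libraries was then compared, as libraries and not as conditions. MALAT1 was 2.23-fold higher in library 1 than in library 3 (interval 2.11 to 2.36) and 2.54-fold higher in library 1 than in library 4 (2.37 to 2.72). It was 3.13-fold higher in library 2 than in library 3 (2.93 to 3.34) and 3.56-fold higher in library 2 than in library 4 (3.30 to 3.83). Over the 3735 loci with at least 1000 reads, the shares past 2-fold in the same direction were 1.29%, 1.04%, 1.66% and 1.39%, and in the opposite direction 2.65%, 2.49%, 4.58% and 4.42%. Loci with a higher fold than MALAT1 numbered 37, 25, 24 and 16 in these pairs.

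Within the other pairs the differences of MALAT1 were smaller. It was 0.714 times as high in library 1 as in library 2 (interval 0.676 to 0.754), and 6 loci of 3735 had a lower fold. Between these libraries 0.0535% of loci were past 2-fold higher in library 1, and 0% past 2-fold lower. Library 3 was 1.14-fold above library 4 (1.05 to 1.23), a fold above that of 94.5% of loci.

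NEAT1 did not pass 2-fold in any pair. Its folds were 0.967 for library 1 over 2, 1.09 for 1 over 3, 1.25 for 1 over 4, 1.13 for 2 over 3, 1.29 for 2 over 4 and 1.14 for 3 over 4. In the same order of pairs, these were above the folds of 35.7%, 68.4%, 87.8%, 69.6%, 85.2% and 95.0% of the 3735 loci. For library 3 over 4 NEAT1 thus ranked about as high as MALAT1. The intervals for library 1 over 4 (1.06 to 1.48) and library 2 over 4 (1.05 to 1.58) left out equal levels, and the other 4 included them.

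**Figure D5:**
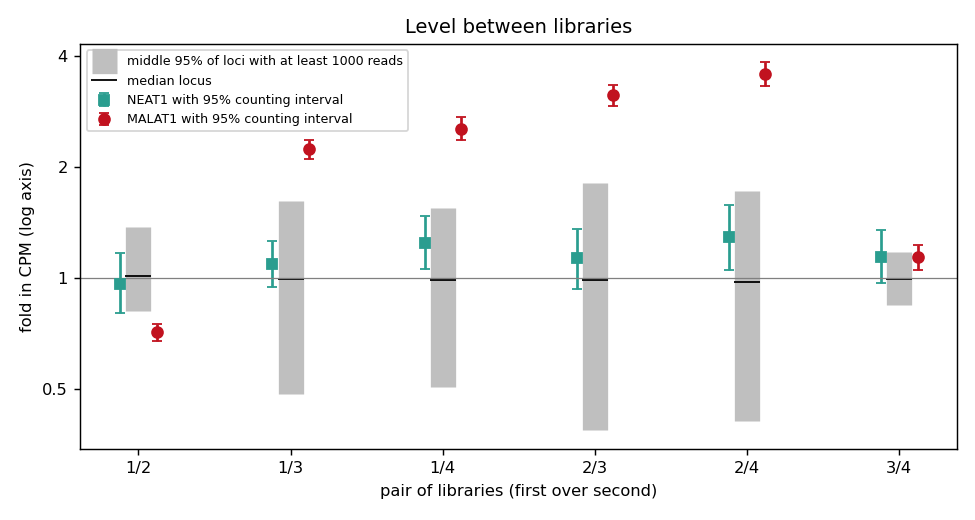
Fold in CPM (log axis) between each pair of libraries for NEAT1 and MALAT1 with 95% counting intervals. Grey bars span the middle 95% of the 3735 loci with at least 1000 reads, with the median locus as a black line, and MALAT1 lies outside them in the pairs 1/2, 1/3, 1/4, 2/3 and 2/4.

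The difference in MALAT1 ran through most of its regions. Of its 11 regions with at least 100 reads, 8 were past 2-fold higher in library 1 than in library 3, against 8.84% of the 15359 regions of the table with that many reads. In library 1 over library 4 the count was 9 (8.29% of all regions), in library 2 over library 3 it was 9 (10.2%) and in library 2 over library 4 it was 11 (9.66%). No MALAT1 region was past 2-fold lower in these pairs, where 3.98%, 3.87%, 8.25% and 8.01% of all regions were. Regions of a gene are not independent of each other. No MALAT1 region was past 2-fold higher in library 1 than in library 2 (1.71% of all regions). MALAT1 region 2 was past 2-fold lower in that pair (0.378%), and region 16 past 2-fold higher in library 3 than in library 4 (1.11%).

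The single NEAT1 region with at least 100 reads, region 3, passed 2-fold in none of the 6 pairs. The table as a whole also differed more between libraries 1 or 2 and libraries 3 or 4 than within these pairs, as the shares above show. The labels name no batch, so a technical and a biological source of the difference cannot be told apart. MALAT1 had no region of 5 bases or fewer, a class with 2489 regions in the table.

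Usage within each gene was compared by Fisher's exact test of a region's reads against the other reads of its locus, two-sided, on counts thinned to the smallest library. Adjustment was by Benjamini-Hochberg over 18813 regions within each pair, with a threshold of 0.05. No NEAT1 region was called in any pair, and none had an unadjusted p under 0.05; the lowest unadjusted p by the exact test was 0.173. At these depths small changes of usage would not be detectable.

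Of the 21 MALAT1 regions, 2 were called between libraries 1 and 3, 3 between 1 and 4, 3 between 2 and 3 and 2 between 2 and 4. The shares of all regions called were 11.1%, 9.37%, 15.7% and 14.5%, so in this thinning the MALAT1 counts were near the background. Without thinning, or in further thinnings, some of these counts moved away from it in either direction, as given in the last section. Between libraries 1 and 2 and between libraries 3 and 4 no MALAT1 region was called, where 0.202% and 0.0425% of all regions were. In these pairs 2 and 3 MALAT1 regions had an unadjusted p under 0.05 by the exact test. The share of all regions at that unadjusted threshold was not counted, so those counts have no background beside them.

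The calls of single MALAT1 regions depended on the random thinning. Of the 10 calls, 1 was made in each of 3 thinnings and in the counts as deposited. It was region 11 between libraries 2 and 3, with 1.67% of the MALAT1 reads in library 2 and 3.66% in library 3 as deposited, and an adjusted p by Fisher's exact test of 0.00151 to 0.0479 over the 4 runs. Region 1 had a higher share in library 2 (18.3%) than in library 4 (13.2%) as deposited, with an adjusted p by the same exact test of 0.00245 to 0.0845.

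The mean position of MALAT1 reads was 924, 850, 992 and 918 bases from the start of region 1 in libraries 1 to 4. For NEAT1 it was 566, 571, 567 and 560 bases from the start of its region 1.

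The regions whose pattern over the 4 libraries was most like that of the strongest region of each gene were taken by distance of centred log2(CPM + 1), among 3452 regions with at least 1000 reads. For NEAT1 region 3 they were at chr22:24237370-24237427 on the plus strand, chr17:61896669-61896686 on the plus strand and chr1:19630441-19630498 on the minus strand. Their distances were 0.02, 0.02 and 0.03. The nearest to MALAT1 region 3 was MALAT1 region 4 (distance 0.20), followed by chr2:232325383-232325545 (0.28) and chr11:57295924-57295952 (0.32), both on the minus strand. The nearest regions thus lay farther from MALAT1 region 3 than from NEAT1 region 3. With 4 libraries this is a description.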

How the data were processed

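The deposited table gives, per the file headers, the position and strand of each poly(A) region and its unnormalized read count in 4 libraries. Bowtie2 2.2.5 and the build hg19 are listed, with no further detail, in the submitters' processing notes. The rule that formed regions, and any use of the 6 degenerate primer bases against duplicates, are not given in the sources used here. Library totals ran from 2163977 to 5713530 reads.

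Widths are end minus start plus 1. The gene windows, the test and the comparisons were chosen with earlier results of these data known. All member regions are named. CPM used the library totals, with edgeR 4.0.16 TMM and median-of-ratios scaling as alternatives. Loci joined regions within 5 kb. Fisher's exact test (scipy 1.17.1, two-sided, Benjamini-Hochberg) ran over the whole table for multi-region loci of 100 reads or more. It was tested on simulated data, where changes were recovered mainly at loci with many reads. Apart from the changes set in, the simulated libraries varied by counting error alone and held no PCR copies. How the test behaves with more variation was not tested. With a single group, no model across groups was fitted. Intervals are exact binomial. The planned levels of paraspeckle protein genes are not reported, since regions carry no gene names.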

Additional observations from a re-analysis of the deposited data

Results flagged for a closer look

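Dixon's test for a single distant library was applied to 51 values (levels, shares and the ratio of NEAT1 to MALAT1) and marked 0 of them. Chance alone flags about 1 in 20.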

How the results depend on the processing

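With TMM or median-of-ratios scaling, or without regions of 5 bases or fewer, the mean levels of NEAT1 and MALAT1 moved by less than the SD between libraries. Leaving out each library in turn gave 66.4 to 72.0 CPM for NEAT1, 413 to 639 CPM for MALAT1, 0.137 to 0.184 for the ratio of NEAT1 to MALAT1 reads, 92.5% to 92.8% for the share of NEAT1 region 3 and 31.7% to 32.4% for that of MALAT1 region 3. The MALAT1 level rests most on library 2: without it the mean was 413 CPM. With TMM scaling MALAT1 was 2.05-fold higher in library 1 than in library 3 and 2.33-fold higher in library 1 than in library 4. Its regions past 2-fold higher in these pairs then numbered 6 and 7, in place of 8 and 9, against 8.07% and 7.64% of all regions. For library 2 over libraries 3 and 4 they stayed at 9 and 11, against 9.43% and 8.88%. With a minimum of 5% of the gene's reads, 1 region of NEAT1 and 3 of MALAT1 were left, so the shares became 100% for NEAT1 region 3 and 42.6% for MALAT1 region 3 by construction.

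The counts of MALAT1 regions with changed usage moved most. Without thinning they were 10 between libraries 1 and 3, 8 between 2 and 3 and 1 between 2 and 4, where 25.3%, 22.9% and 18.955% of all regions were called. In a pair of further random thinnings, chosen after seeing the data, they were 1 and 1 between libraries 1 and 3, 1 and 0 between 1 and 4, and 1 and 0 between 2 and 4, with 10.5% and 10.6%, 9.57% and 9.69%, and 14.4% and 14.2% of all regions called. Joining distances of 1, 2 and 10 kb and other read minimums left these counts within 1.5 times. Past 1.5-fold in place of 2-fold, 4 MALAT1 regions were lower in library 1 than in library 2, 2 were higher in library 3 than in library 4 and 1 was lower, against 3.61%, 3.20% and 3.42% of all regions. The cause of these moves was not tested. No paired analysis was possible because the series has a single group.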
